A study of Mus musculus with 6 samples.

Results

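Mitochondria form a network that is remodelled by fusion, which joins their membranes, and by fission, which divides them. Fusion of the outer membrane is carried out by the mitofusins, and fission by the dynamin-related GTPase DRP1, which is brought from the cytosol to the outer membrane by adaptor proteins and constricts the organelle. The balance between both processes is known to differ between neural progenitors and their neuronal progeny. The transcripts of 7 genes of this machinery are described here: Dnm1l, which encodes DRP1; Fis1, Mff and Mief1, whose products are DRP1 adaptors of the outer membrane; Mfn1, a mitofusin; Mtfr1, mitochondrial fission regulator 1; and Chchd3, a subunit of the MICOS complex that shapes the inner membrane.

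The genes were found by name in a table of assembled transcripts, and every transcript of the same StringTie locus was then included. They are 7 of 7171 loci in the table and hold 24 of its 15113 transcripts. Of the 24, 17 carry an Ensembl identifier and 7 are unnamed models built by the StringTie assembler. A single transcript is listed for Fis1, and several for each of the other 6 genes. The filter used before testing, at least 1 FPKM in at least 2 libraries, was passed by 21 of the 24. FPKM is the number of fragments relative to the length of the transcript and to the total mapped in its library, so levels can be compared between transcripts of unequal length.

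The cells were C17.2, an established multipotent neural stem cell line of the mouse (strain CD1 x C57BL/6). One group was treated with heme, the iron-containing group of haemoglobin; the sources used here state neither its dose nor its duration nor its medium. A second group was cultured for neural induction in Knockout DMEM with GlutaMAX, N2 supplement and brain-derived neurotrophic factor (BDNF) at 10 ng/ml, for a time that is not given. The control group was kept in growth medium, DMEM/F12 with 10% fetal bovine serum, so that serum, base medium and BDNF all differ between neural induction and control. The labels state 2 biological replicates in each group and do not say whether these were separate cultures. The study's title names mitochondrial dynamics in neurogenesis.

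The heme replicate 2 column could not be used as a replicate. Its value was the heme replicate 1 value times 1.25 to 1.50 for all 13963 transcripts with a value, and both columns listed the same 1150 transcripts at 0. Both columns were taken as 1 sample, represented by replicate 1, which left 1 heme, 2 neural induction and 2 control libraries. The heme library has no replicate check of its own, and its tests assume that it varies like the libraries of the other groups. The 5 libraries rested on 4.14 to 4.56 gigabases of mapped sequence, as coverage divided by FPKM gave it. Control replicate 2 stood apart: its locus sums differed from control replicate 1 by a median of 0.21 on the log2 scale, against 0.089 between the heme library and control replicate 1 and 0.10 between the neural induction replicates (7039 loci). Of the progenitor markers Nes, Sox2, Msi1, Vim, Pax6 and Fabp7, the 3 listed ones (Nes, Sox2 and Vim) summed to 809 to 949 FPKM. Of 5 neuronal markers only Tubb3 and Map2 were listed, with sums of 21.8 to 32.6 FPKM. None of the 4 astrocyte, 3 microglial, 2 endothelial or 4 erythroid markers was listed in the table. It holds 7171 loci only, so a marker missing from it was not shown to be absent from the cells. The part of these markers in the results below was not tested.

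The sequences that tell the leading transcripts of Dnm1l apart are shown first, because the transcript mix of this gene separated the neural induction libraries from the others. The named transcript ENSMUST00000023477 has 18 exons, and its exons are those of Dnm1l-201 in GENCODE M21 with moved outer ends. The unnamed transcript MSTRG.7422.1 has 19 exons and 4031 bases. The table gives each model's ends, exon number and length but no exon positions, so its exons were inferred by arithmetic: of all annotated exon paths of the gene, 1 had these ends, this exon number and this length. That path adds a cassette exon of 33 bases, which leaves the reading frame intact, at chr16:16318445-16318477 (GRCm38, minus strand). The exon is annotated in 3 other Dnm1l transcripts (Dnm1l-203, Dnm1l-204 and Dnm1l-207) and lies in the part of the gene that codes for the variable domain of DRP1, a known region of alternative splicing. Both junctions are given 5′ to 3′ in the sense of the mRNA, from the GENCODE transcripts, with 30 bases on each side and the cassette exon in capitals.
Dnm1l with the cassette exon: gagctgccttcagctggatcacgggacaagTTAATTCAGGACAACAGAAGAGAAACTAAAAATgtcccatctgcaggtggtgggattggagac
Dnm1l without the cassette exon: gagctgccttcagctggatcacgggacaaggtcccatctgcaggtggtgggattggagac

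The listed Mff transcripts are mostly fragments, and the models Mff-203 (ENSMUST00000159279) and Mff-204 (ENSMUST00000160044) share 373 of their 440 and 435 bases. They are shown because one of them was at 1 FPKM or more only in the heme library. They part at their last exon, which is at chr1:82741818-82741884 in Mff-203 and at chr1:82750520-82750581 in Mff-204 (GRCm38, plus strand). That exon is in capitals, after the 30 bases that both models share before it. Neither exon is particular to its model. The 67 bases of Mff-203 also lie in Mff-206 (ENSMUST00000160744), and the 62 bases of Mff-204 in Mff-215 (ENSMUST00000162794). Mff-206 was listed at 0 in the heme library and at 4.42 to 5.99 FPKM in the neural induction and control libraries.
Mff-203: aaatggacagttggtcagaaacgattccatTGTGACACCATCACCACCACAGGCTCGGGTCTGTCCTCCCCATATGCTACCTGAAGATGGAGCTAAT
Mff-204: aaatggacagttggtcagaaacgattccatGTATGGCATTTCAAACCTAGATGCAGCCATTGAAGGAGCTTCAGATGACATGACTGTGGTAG

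In Chchd3 the most abundant listed transcript was not the one with the longest annotated coding sequence. Chchd3-203 (ENSMUST00000124436), annotated as a target of nonsense-mediated decay with 252 coding bases, lacks 52 bases that Chchd3-201 (ENSMUST00000066379) holds at chr6:32968267-32968318 (GRCm38, minus strand). The length of 52 is not a multiple of 3, so the frames of both forms part there, and Chchd3-201 has 681 coding bases. Those bases are in capitals in the longer form.
Chchd3-201: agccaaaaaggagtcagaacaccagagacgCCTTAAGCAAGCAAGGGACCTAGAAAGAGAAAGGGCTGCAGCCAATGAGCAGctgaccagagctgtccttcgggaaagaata
Chchd3-203: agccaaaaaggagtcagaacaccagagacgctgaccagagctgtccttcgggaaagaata

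Dnm1l (chr16:16312235-16359030) had nearly the same summed level in all 5 libraries, but its make-up in the neural induction libraries stood apart from that in the heme and control libraries. The locus sum of its 2 transcripts was 49.2 FPKM in the heme library, 48.8 and 46.5 FPKM in the neural induction libraries and 48.6 and 48.1 FPKM in the control libraries. The highest of the 5 values was 1.06 times the lowest, and the neural induction libraries enclosed both controls. On the log2(FPKM + 1) scale the sum differed from control by 0.026 ± 0.095 in heme (SE; 95% interval -0.23 to 0.28) and by -0.020 ± 0.077 in neural induction (-0.23 to 0.19). ENSMUST00000023477, the form without the cassette exon, had 1.71 FPKM in the heme library, 41.6 and 40.8 FPKM in the neural induction libraries and 1.73 and 1.68 FPKM in the control libraries. MSTRG.7422.1, the form matched to the path with the cassette exon, had 47.5 FPKM in the heme library, 7.21 and 5.64 FPKM in the neural induction libraries and 46.8 and 46.4 FPKM in the control libraries. Neither transcript overlapped between neural induction and control, while the heme library lay beside both controls.

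As a share of the locus, the form without the cassette exon made up 3.48% in the heme library, 85.2% and 87.9% in the neural induction libraries and 3.56% and 3.49% in the control libraries. Its level differed between neural induction and control by 3.96 ± 0.29 on the log2(FPKM + 1) scale (SE; 95% interval 3.16 to 4.77), and that of MSTRG.7422.1 by -2.69 ± 0.17 (-3.15 to -2.23). With limma and Benjamini-Hochberg adjustment over all 13737 transcripts tested, the p of 0.000157 and 8.2e-05 became adjusted p of 0.179 and 0.176, so neither passed the threshold of 0.05. The log2 odds of the form within its locus differed by 6.65 ± 0.43 (5.38 to 7.92), with a limma adjusted p of 0.193 over 10662 shares. Both transcripts were on the called side of the threshold in the fit on all 6 columns, with limma adjusted p of 0.0242 and 0.0259, but that fit counts the rescaled heme column as a replicate. For heme against control the differences were 0.0059 ± 0.36 (-0.98 to 0.99) for ENSMUST00000023477 and 0.027 ± 0.20 (-0.54 to 0.59) for MSTRG.7422.1 on the log2(FPKM + 1) scale.

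**Figure D1:**
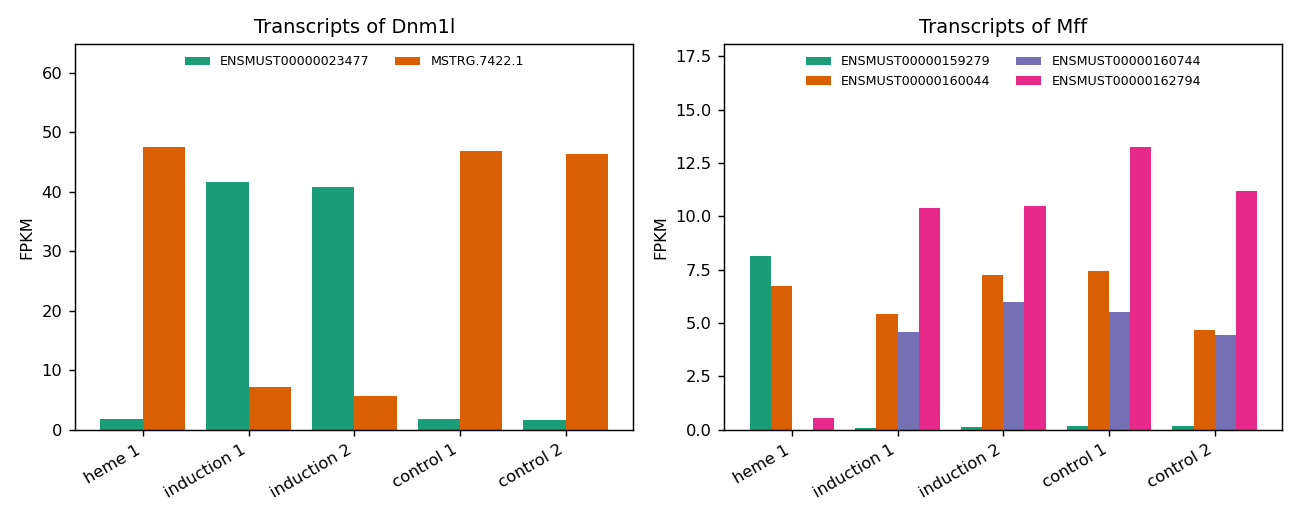
FPKM (y axis, linear from 0) of each listed transcript of Dnm1l (left) and Mff (right) in the heme, neural induction and control libraries (x axis); each bar is 1 library. ENSMUST00000023477 of Dnm1l stands at 41.6 and 40.8 FPKM in the neural induction libraries and under 2 FPKM in the heme and control libraries, and ENSMUST00000159279 of Mff at 8.12 FPKM in the heme library alone.

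The tests can be read against all features. In heme against control 0 of 21 member transcripts passed, against 10 of 13737 transcripts (0.0728%), and in neural induction against control 0 of 21 passed, against 1 of 13737 (0.00728%). Of the 7 locus sums 0 passed in either comparison, against 3 of 7039 (0.0426%) for heme and 1 of 7039 (0.0142%) for neural induction. Of the 20 member shares 0 passed, and over all 10662 shares none passed in limma either (0% in both comparisons), with 784 for heme and 731 for neural induction at an unadjusted p under 0.05. Of the 21 member transcripts, 2 of Mff for heme and 2 of Dnm1l for neural induction had an unadjusted p under 0.05. Among all 13737 transcripts there were 680 and 684. Of the 7 member locus sums there was 1 for heme, that of Mff, against 253 of 7039. Of the 20 member shares, 2 in each comparison had an unadjusted p under 0.05, against the 784 and 731 of 10662. Those of neural induction are the only 2 transcripts of Dnm1l, so their shares mirror each other. With 2 neural induction and 2 control libraries, 6 of the 24 member transcripts did not overlap between these groups, against 30.1% of all transcripts, and 13 of 24 had the heme library outside both controls, against 59.2% of all. In these 2 counts of overlap the members were thus near the table as a whole.

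Among the adaptors, Mff (chr1:82729326-82752158) encodes a tail-anchored receptor that brings DRP1 to the outer membrane, and its make-up in the heme library stood apart from that of the other 4 libraries. The locus sum was 15.4 FPKM in the heme library, 20.4 and 23.8 FPKM in the neural induction libraries and 26.3 and 20.4 FPKM in the control libraries. The heme library was the lowest, and neural induction and control overlapped. On the log2(FPKM + 1) scale the sum in heme differed from control by -0.56 ± 0.21 (95% interval -1.11 to -0.012), with a limma p of 0.0467 and an adjusted p of 0.998. In this bulk RNA, fewer cells of a type and less RNA per cell cannot be told apart.

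The retained-intron form Mff-215 (ENSMUST00000162794) had 0.564 FPKM in the heme library, 10.4 and 10.5 FPKM in the neural induction libraries and 13.2 and 11.2 FPKM in the control libraries. The fragment Mff-206 (ENSMUST00000160744) was listed at 0 in the heme library, at 4.58 and 5.99 FPKM in the neural induction libraries and at 5.50 and 4.42 FPKM in the control libraries. Mff-203 (ENSMUST00000159279) had 8.12 FPKM in the heme library, 0.0529 and 0.108 FPKM in the neural induction libraries and 0.150 and 0.187 FPKM in the control libraries. The heme library thus lay outside the other 4 for all 3 of these transcripts. Mff-204 (ENSMUST00000160044), the close neighbour of Mff-203, did not separate it, with 6.74 FPKM in the heme library, 5.41 and 7.23 FPKM in the neural induction libraries and 7.45 and 4.65 FPKM in the control libraries.

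As a share of the locus, Mff-203 made up 52.6% in the heme library, 0.259% and 0.456% in the neural induction libraries and 0.568% and 0.914% in the control libraries. Mff-215 made up 3.66% in the heme library, 50.9% and 44.0% in the neural induction libraries and 50.3% and 54.7% in the control libraries. For heme against control the level of Mff-215 differed by -3.07 ± 0.37 on the log2(FPKM + 1) scale (-4.09 to -2.05; limma p 0.00108, adjusted p 0.206), and that of Mff-206 by -2.57 ± 0.59 (-4.21 to -0.93; limma p 0.012, adjusted p 0.645). Since Mff-206 was listed at 0 in the heme library, the size of its difference depends on the pseudocount and is no bound: it was -5.65 with a pseudocount of 0.1 FPKM. Mff-203 did not pass the filter, since it reached 1 FPKM in the heme library only, and was not tested in the fit on 5 libraries. In the share model the log2 odds of Mff-215 differed by -3.47 ± 0.56 and those of Mff-206 by -2.34 ± 0.51, with limma adjusted p of 0.321 and 0.406, and the difference of Mff-206 was -5.41 with a pseudocount of 0.1 FPKM. All 4 models overlap other models of the locus, but Mff-203 and Mff-215 share 0 bases with each other. Mff-215 and Mff-206 hold 220 and 364 bases that no other listed Ensembl transcript of the gene holds. Mff-203 and Mff-204 hold 0 such bases, so the assembler had to divide their reads between models. The part of that division in these values was not tested.

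Fis1 (chr5:136962077-136966234) encodes a small tail-anchored protein of the outer membrane that takes part in fission in yeast and is linked to fission and mitophagy in mammals. Its one listed transcript, ENSMUST00000019198 (Fis1-201; 5 exons, 456 coding bases), had 28.0 FPKM in the heme library, 26.9 and 30.6 FPKM in the neural induction libraries and 33.4 and 23.4 FPKM in the control libraries. The controls spanned all other values. On the log2(FPKM + 1) scale its level differed from control by -0.00050 ± 0.24 in heme (95% interval -0.64 to 0.64) and by 0.035 ± 0.20 in neural induction (-0.49 to 0.56), so differences of up to about that size in either direction lie within the error.

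Mief1 (chr15:80234080-80253366) encodes MiD51, an outer membrane protein that binds DRP1 and gathers it at the division site. It had the lowest level per length of the 7 genes: 3.12 FPKM in the heme library, 5.38 and 7.92 FPKM in the neural induction libraries and 4.54 and 8.13 FPKM in the control libraries. The control values enclosed those of neural induction, and the heme library was the lowest, with a difference from control of -0.79 ± 0.43 on the log2(FPKM + 1) scale (95% interval -1.93 to 0.35; limma adjusted p 0.998). It was -1.15 without control replicate 1, -0.43 without control replicate 2 and -0.49 with a replicate block. The unnamed MSTRG.6982.4 was listed at 0 in the heme library, at 4.72 and 4.79 FPKM in the neural induction libraries and at 3.16 and 0 FPKM in the control libraries. Its share was 0% in the heme library, 87.8% and 60.5% in the neural induction libraries and 69.7% and 0% in the control libraries. Here the controls disagreed with each other: ENSMUST00000023048 (Mief1-201) led in control replicate 2 with 61.0% of the locus, and MSTRG.6982.4 in control replicate 1. In the heme library ENSMUST00000023048 held 52.4% and the unnamed MSTRG.6982.1 held 47.6%.

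Mfn1 (chr3:32529465-32579239) encodes mitofusin 1, the outer membrane GTPase that tethers and fuses mitochondria. Its summed level hardly varied, with 16.0 FPKM in the heme library, 15.5 and 15.2 FPKM in the neural induction libraries and 15.9 and 14.9 FPKM in the control libraries. The sum differed from control by 0.058 ± 0.14 in heme (95% interval -0.32 to 0.43) and by -0.0031 ± 0.11 in neural induction (-0.31 to 0.30) on the log2(FPKM + 1) scale. Beneath that sum, the transcripts of the neural induction and control libraries followed the replicate number and not the group. The unnamed MSTRG.12170.6 (18 exons, 2256 bases) had 11.0 FPKM in the heme library, 0 and 9.65 FPKM in the neural induction libraries and 0 and 9.63 FPKM in the control libraries. The retained-intron form Mfn1-205 (ENSMUST00000140328) had 0.357 FPKM in the heme library, 6.73 and 0.539 FPKM in the neural induction libraries and 7.26 and 0.320 FPKM in the control libraries.

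The same pair of states is seen in the coding transcript Mfn1-201 (ENSMUST00000091257), which made up 29.0% of the locus in the heme library, 56.5% and 33.0% in the neural induction libraries and 54.3% and 33.1% in the control libraries. MSTRG.12170.6 matched 1 annotated exon path of Mfn1 by its ends, exon number and length, with the internal exons of Mfn1-201, another first exon and a shorter last one. In the heme library it led with 68.8% of the locus, as it did in neural induction replicate 2 with 63.5% and in control replicate 2 with 64.7%. The differences within neural induction and within control were larger than those between both groups at the same replicate number.

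Mtfr1 (chr3:19187347-19220817) belongs to a small family of mitochondrial proteins linked to fission. Its locus sum was 41.8 FPKM in the heme library, 35.7 and 17.5 FPKM in the neural induction libraries and 33.6 and 18.8 FPKM in the control libraries. Replicate 1 was above replicate 2 in both replicated groups, and neural induction enclosed control. The sum in heme differed from control by 0.71 ± 0.53 on the log2(FPKM + 1) scale (95% interval -0.71 to 2.13; limma adjusted p 0.998), and that in neural induction by -0.0068 ± 0.44 (-1.17 to 1.16). The heme difference was 1.11 without control replicate 1, 0.31 without control replicate 2 and 0.26 with a replicate block. The coding form Mtfr1-203 (ENSMUST00000119865) had 25.8 FPKM in the heme library, 29.0 and 0 FPKM in the neural induction libraries and 20.4 and 0 FPKM in the control libraries. The coding form Mtfr1-204 (ENSMUST00000130645), which has the same 984 coding bases in number, had 0.369 FPKM in the heme library, 1.84 and 8.69 FPKM in the neural induction libraries and 2.72 and 9.62 FPKM in the control libraries. Replicate 1 of both groups and the heme library thus listed mainly Mtfr1-203, and replicate 2 of both groups listed it at 0. Mtfr1-203 has 1367 bases, while Mtfr1-204 and the unnamed MSTRG.12093.7, which held most of replicate 2, have 2953 and 2745 bases. FPKM is relative to length, so the locus sum depends on which of these models the fragments were assigned to. The part of model length in the differences of this sum was not tested.

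A further Mtfr1 model, the unnamed MSTRG.12093.5 (9 exons, 2653 bases), had 11.6 FPKM in the heme library, 0.0120 and 0.128 FPKM in the neural induction libraries and 0.0444 and 0.183 FPKM in the control libraries. It made up 27.7% of the locus in the heme library and under 1% in the other 4. It did not pass the filter and was not tested in the fit on 5 libraries. The decay-annotated form Mtfr1-201 (ENSMUST00000029129) had 3.78 FPKM in the heme library, 4.90 and 1.34 FPKM in the neural induction libraries and 10.5 and 0.660 FPKM in the control libraries. The unnamed MSTRG.12093.7 held 0.608% in the heme library, 0% and 41.8% in the neural induction libraries and 0% and 44.2% in the control libraries. Neither unnamed Mtfr1 model matched an annotated exon path.

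Chchd3 (chr6:32792217-33060260) encodes MIC19, a MICOS subunit that helps to hold the cristae junctions of the inner membrane. It had the highest level of the 7 in the heme library, with 61.9 FPKM there, 44.5 and 61.3 FPKM in the neural induction libraries and 46.5 and 37.7 FPKM in the control libraries. Both heme and neural induction reached values above the controls, but neural induction replicate 1 lay between them. The sum in heme differed from control by 0.55 ± 0.24 on the log2(FPKM + 1) scale (95% interval -0.082 to 1.19) and that in neural induction by 0.31 ± 0.19 (-0.21 to 0.83), with limma adjusted p of 0.998 and 0.935. Leaving out 1 library, the neural induction difference ranged from 0.086 without neural induction replicate 2 to 0.54 without neural induction replicate 1, and was 0.16 without control replicate 2. Chchd3-203, the form without the 52 bases, led in all 5 libraries, with 66.3% of the locus in the heme library, 38.9% and 41.9% in the neural induction libraries and 60.1% and 57.4% in the control libraries. Its share was lower in both neural induction libraries than in both controls, by -1.03 ± 0.44 in log2 odds (-2.32 to 0.26; limma p 0.0878, adjusted p 0.919), a difference that did not pass.

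In FPKM, Chchd3-203 had 41.1 in the heme library, 17.3 and 25.7 in the neural induction libraries and 27.9 and 21.6 in the control libraries, so that neural induction and control overlapped. Chchd3-201, the form with the longest annotated coding sequence, had 1.70 FPKM in the heme library, 13.0 and 0.278 FPKM in the neural induction libraries and 3.04 and 0.681 FPKM in the control libraries. The coding form Chchd3-202 (ENSMUST00000115091; 6 exons and another 3′ end) had 11.9 FPKM in the heme library, 7.68 and 18.2 FPKM in the neural induction libraries and 10.6 and 10.4 FPKM in the control libraries. The neural induction replicates disagreed on both coding forms, one being above and the other below the controls. The other models completed the locus: the unnamed MSTRG.16721.3 reached 22.1% in neural induction replicate 2 and was listed at 0 in replicate 1, the non-coding Chchd3-207 (ENSMUST00000129654) reached 14.0% in neural induction replicate 1, and the non-coding Chchd3-210 (ENSMUST00000143206) held 0.562% to 5.21% across the libraries. Chchd3-203 holds 0 bases that no other listed Ensembl transcript of the gene holds, and Chchd3-201 holds 31.

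**Figure D2:**
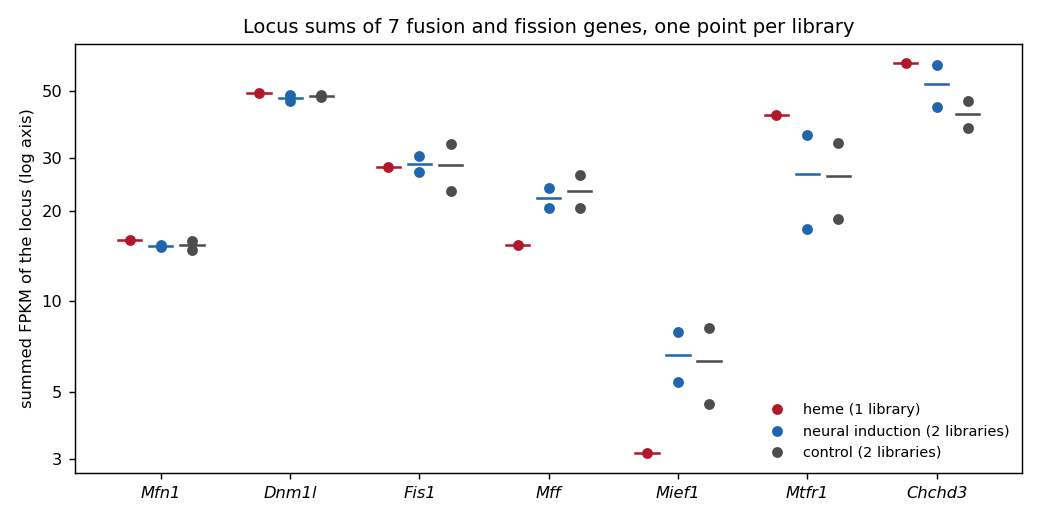
Summed FPKM of each locus (y axis, log scale) for the 7 genes (x axis) in heme (red), neural induction (blue) and control (grey); each point is 1 library and each line the mean of its group. Mfn1 and Dnm1l are flat, with a highest value 1.08 and 1.06 times the lowest, while the points of Mief1 and Mtfr1 spread over 2.61 and 2.39 times.

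**Figure D3:**
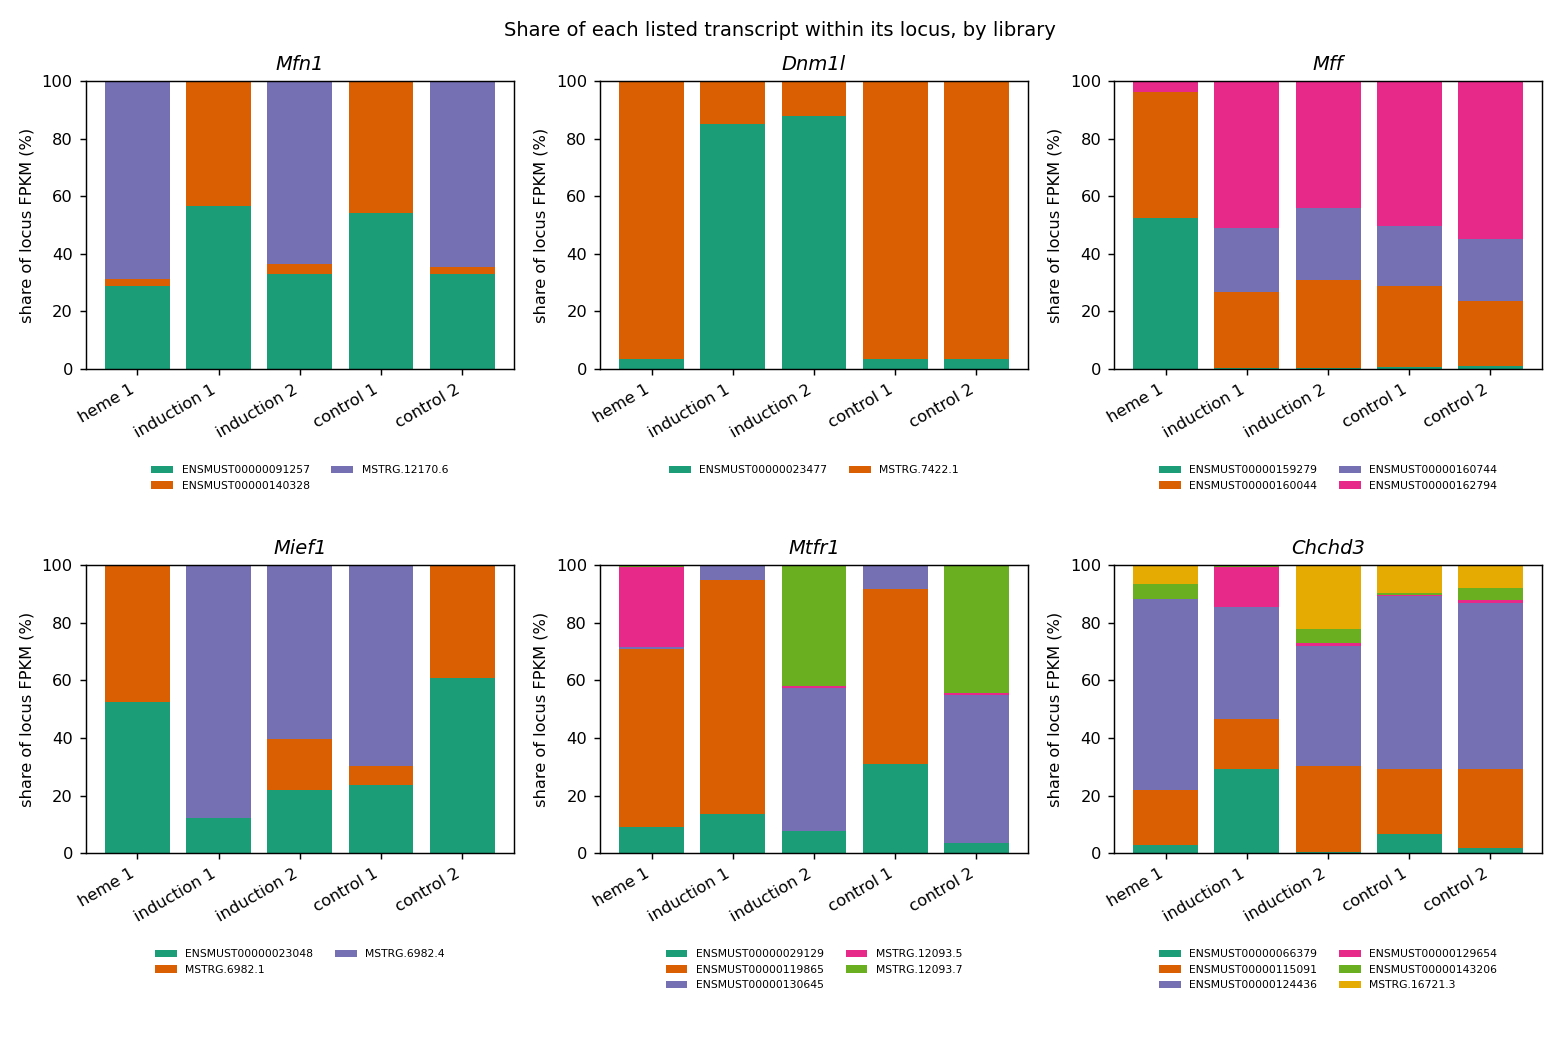
Share of the locus FPKM (y axis, percent) held by each listed transcript (colours) in each library (x axis) for the 6 genes with several transcripts. Dnm1l differs between neural induction and the other groups, Mff between heme and the other groups, and Mfn1 and Mtfr1 between replicate 1 and replicate 2 of both replicated groups.

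The make-up of each locus was summed into a shift, the sum of the gains in share of all transcripts that hold a larger share in one library of a pair than in the other, which is 0 points for the same mix and 100 for mixes with nothing in common. For Dnm1l it was 81.7 to 84.4 points between neural induction and control libraries, 2.65 points between the neural induction replicates and 0.0643 points between the controls. For Mff it was 67.5 to 72.7 points between the heme library and the controls and 5.50 points between the controls. These are the values of libraries that were seen before the limits were set, so they carry no test: a shift over 50 points between neural induction and control with under 10 within each group was found at 26 of 3629 loci (0.716%), and a shift over 50 points between heme and both controls with under 10 between the controls at 151 of 3629 (4.16%). Dnm1l was among those 26 and Mff among those 151, and no other of the 6 genes was in either set. The heme set rests on 1 heme library, whose spread within its group could not be measured.

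In the other 4 genes the smallest shift between neural induction and control was below the largest shift within either group. Mfn1 shifted by 63.5 points between the neural induction replicates and by 64.7 points between the controls, but by 2.22 points between neural induction and control at replicate 1 and 1.39 points at replicate 2. Mtfr1 shifted by 87.2 points between the neural induction replicates and by 88.3 between the controls, and by 20.5 and 4.14 points between the groups at replicate 1 and replicate 2. Mief1 shifted by 27.3 points within neural induction and 69.7 points within control. Chchd3 shifted by 42.1 points within neural induction, by 9.26 within control and by 17.3 to 40.3 between both groups. The leading transcript was not the same in all 5 libraries for 5 of the 6 genes, against 57.6% of the 3629 loci with several transcripts and a mean of at least 5 FPKM. The controls differed from each other in leading transcript for 3 of the 6, against 31.2% of those loci.

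**Figure D4:**
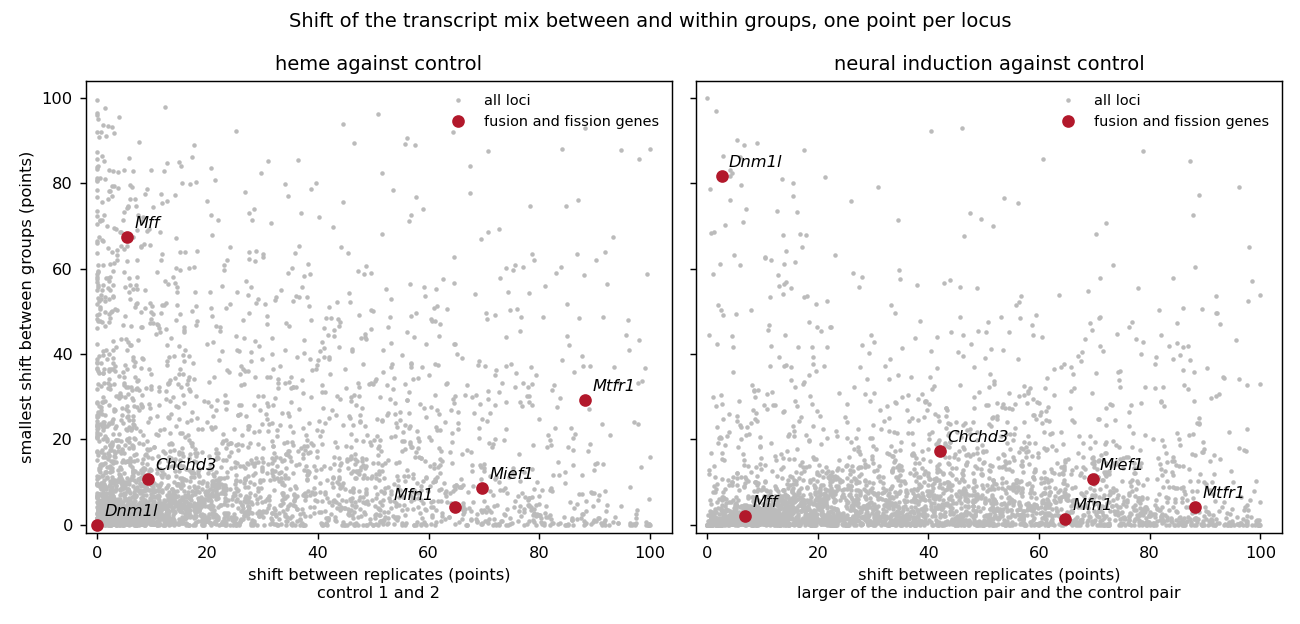
Smallest shift of the transcript mix between groups (y axis, points) against the shift between replicates (x axis, points: the control pair on the left, the larger of the neural induction and control pairs on the right), for heme against control (left) and neural induction against control (right); grey points are all 3629 loci and red points the 6 genes. Dnm1l lies at the upper left for neural induction, with a smallest shift of 81.7 points, and Mff for heme, with 67.5 points, while Mfn1, Mief1 and Mtfr1 lie at 64.7 points or more on both x axes.

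The authors' deposited table gave, for neural induction against control, log2 fold changes of 4.47 for ENSMUST00000023477 and -2.70 for MSTRG.7422.1 of Dnm1l. After Benjamini-Hochberg adjustment of the p in the authors' deposited table these had 3.01e-09 and 9.29e-07, and they were the 2 of 24 member transcripts under 0.05, against 1088 of all 15113 (7.20%). For heme, 4 of the 24 were under 0.05 in the authors' deposited table, against 1094 of 15113 (7.24%): Mff-203 at 4.89, Mff-215 at -4.30, MSTRG.12170.6 of Mfn1 at 6.47 and MSTRG.12093.5 of Mtfr1 at 6.09 on the log2 scale. The fold changes of the authors' deposited tables lay within 0.1 on the log2 scale of the ratio of replicate 1 to control replicate 1 for 100% of the transcripts above 5 FPKM in both, so they compare 2 libraries. MSTRG.12170.6 shows what this leaves out: it was listed at 0 in control replicate 1 and at 9.63 FPKM in control replicate 2, beside 11.0 FPKM in the heme library.

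Of 44 other genes of fusion, fission and the inner membrane scaffold, 22 were listed in the table, at 22 loci. Mfn2 and Opa1, the other main fusion GTPases, were among the 44 but not among the 22 listed, so they could not be analysed. Of 52 transcripts of these genes that were tested, 0 passed in either comparison in limma. At an unadjusted limma p under 0.05 there were 5 for heme and 2 for neural induction, against 680 and 684 of all 13737. Of the 22 locus sums 0 passed, with 0 and 1 at that unadjusted level, against 253 and 215 of 7039. The median log2 difference of the transcripts was -0.060 for heme and 0.058 for neural induction, beside 0.0021 and 0.019 over all transcripts tested. Taking the transcript with the smallest p of each gene over both comparisons, the 4 genes at the top were Dnm2, Immt, Phb and March5. For heme, a transcript of Dnm2, a dynamin GTPase of endocytosis, had 14.2 FPKM in the heme library, 3.59 and 3.97 FPKM in the neural induction libraries and 4.35 and 3.25 FPKM in the control libraries (difference 1.67 ± 0.48 on the log2(FPKM + 1) scale, limma adjusted p 0.849).

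An unnamed transcript of Immt, which encodes the MICOS core protein MIC60, had 11.2 FPKM in the heme library, 2.39 and 2.46 FPKM in the neural induction libraries and 2.45 in both control libraries (1.83 ± 0.55, limma adjusted p 0.877). A transcript of Phb, which encodes the inner membrane scaffold protein prohibitin, had 0.534 and 2.64 FPKM in the neural induction libraries and 6.66 and 8.76 FPKM in the control libraries (-1.87 ± 0.61, limma adjusted p 0.905). The heme library had 9.73 FPKM of it. An unnamed transcript of March5, a ubiquitin ligase of the outer membrane, had 9.24 and 4.42 FPKM in the neural induction libraries and 0.580 and 1.73 FPKM in the control libraries (1.84 ± 0.61, limma adjusted p 0.935). The heme library had 7.47 FPKM of it, between the neural induction values and above both controls. In each of these 4 the groups compared did not overlap, and none passed. Over all transcripts, 30.1% did not overlap between neural induction and control, and 59.2% had the heme library outside both controls. The 4 were picked by smallest p, so their lack of overlap carries no test.

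Likeness of the locus sums over the 5 libraries was described by the root mean square difference of centred log2(FPKM + 1) values among 5561 named loci, for the 4 genes whose sums ranged over more than 0.5 on that scale. Mff was closest to Gm17018 (0.054) and Ywhae (0.068), Chchd3 to Gm21092 (0.054) and Tpst2 (0.064), Mtfr1 to Gne (0.13) and Mdfic (0.15), and Mief1 to Krit1 (0.15) and Cnih4 (0.17). The sums of Mfn1, Dnm1l and Fis1 ranged over 0.5 or less, and no nearest loci are given for them.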

How the data were processed

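The authors ran HISAT2, StringTie and edgeR against GRCm38 (mm10), per the submitters' processing notes, which give no versions; TruSeq libraries were made from total RNA, per the labels' protocols. The authors deposited FPKM and mean coverage (signal) per transcript, and 2 tables of log2 fold changes, a likelihood ratio score and unadjusted p-values. Counts are not used here, so no counting interval is given; depth was read from coverage divided by FPKM. Locus sums add the FPKM of all listed transcripts of a StringTie locus, so they also depend on the lengths of the models that fragments were assigned to. Transcript structures and sequences came from GENCODE M21 (GRCm38).

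Linear models were fitted with limma (version 3.58.1, R 4.3.3; eBayes with a trend), two-sided, with 5 libraries in 3 groups and 2 residual degrees of freedom, on log2(FPKM + 1) of transcripts and of locus sums, and on log2((FPKM + 1)/(rest of the locus + 1)) for shares; fold changes of low transcripts are understated on these scales. Features that reached 1 FPKM in 2 or more libraries were tested, adjusted over all of them by Benjamini-Hochberg, with a threshold of 0.05; the code was tested on simulated data. p-values measure the spread between these libraries only, which may be technical. All listed transcripts of the 7 genes are named, with at most 4 other genes of the list by smallest p. The genes and lists were chosen with earlier results of these data known. Alternatives were another pseudocount, no filter, all 6 columns, the mean of the heme columns, a replicate block and leaving out each control or neural induction library in turn. The heme library was not left out. A further marker list is not reported here.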

Additional observations from a re-analysis of the deposited data

How the results depend on the processing

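None of the 7 genes' transcripts, locus sums or shares passed in the main limma fit, nor with a pseudocount of 0.1 FPKM, without the filter, with the mean of the heme columns or with the replicate block. The fit on all 6 columns counts the rescaled heme column as a replicate. For heme it called 4 of 23 member transcripts (Mff-203, Mff-206, Mff-215 and MSTRG.12093.5). Also for heme it called 2 of 7 locus sums (Chchd3, limma adjusted p 0.0474, and Mtfr1, 0.0197) and 3 of 22 shares (all of Mff). For neural induction it called 2 of 23 transcripts and 2 of 22 shares, all of Dnm1l, and 0 of 7 locus sums. It moved the median heme difference of all transcripts to 0.22 and of all locus sums to 0.21 on the log2 scale, and the mean of the heme columns moved both to 0.23. Over all features the fit on 6 columns called 417 of 14037 transcripts for heme (251 higher, 166 lower) and 86 for neural induction. For heme and neural induction in turn it called 207 and 51 of 7063 locus sums, and 811 and 294 of 10938 shares.

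Without the filter the transcripts called were 6 for heme and 0 for neural induction, and 0 locus sums for neural induction, which was also 0 with a pseudocount of 0.1. With the replicate block 0 transcripts were called in either comparison and 2 locus sums for neural induction. Leaving out 1 library gave 0 to 0 calls for transcripts and locus sums in both comparisons; these fits and the block have 1 residual degree of freedom. The replicate differences in locus sum of neural induction and control correlated at r = -0.0513 across 7039 loci. This value covers locus sums and not the mix within a locus, which followed the replicate number in Mfn1 and Mtfr1. Whether libraries of the same number were paired cannot be told from it.

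Leaving out 1 library, the Dnm1l difference for neural induction ranged from 3.95 to 3.98 (ENSMUST00000023477) and from -2.84 to -2.53 (MSTRG.7422.1), with adjusted p of 0.382 to 0.599, and Mff-215 for heme from -3.19 to -2.96. Differences near 0 changed sign, and the cause was not tested. For heme, the block gave -0.053 for MSTRG.7422.1 and -0.0072 for ENSMUST00000023477, and Fis1 was 0.26 with 6 columns, 0.28 with the mean of the heme columns and 0.00019 with a pseudocount of 0.1. Leaving out 1 library, the heme differences ranged from -0.0071 to 0.019 for ENSMUST00000023477 and from -0.25 to 0.25 for Fis1. The neural induction differences ranged from -0.48 to 0.058 for Chchd3-203, and for locus sums from -0.055 to 0.014 for Dnm1l, -0.21 to 0.28 for Fis1, -0.25 to 0.11 for Mff, -0.046 to 0.040 for Mfn1, -0.28 to 0.44 for Mief1 and -0.50 to 0.49 for Mtfr1. For heme, the locus sums ranged from 0.41 to 0.70 for Chchd3, -0.73 to -0.38 for Mff, -1.15 to -0.43 for Mief1 and 0.31 to 1.11 for Mtfr1, and for neural induction from 0.086 to 0.54 for Chchd3. With a pseudocount of 0.1, Mff-206 gave -5.65 in level and -5.41 in log2 odds.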
